A study of Rattus norvegicus with 18 samples.

Results

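Blood coagulation and its reversal were followed in the rat hippocampus through 9 genes: F3, F10, Tfpi, Thbd, F2r, Plau, Plaur, Plat and A2m. They were chosen by gene symbol, as every array probe that the platform annotation, or failing that a RefSeq accession, assigns to one of these names. All 9 of the 12344 genes named on the array were measured, by 15 probes in all. F3, Plaur, Plat and A2m had 1 probe each, F10, Thbd, F2r and Plau had a pair, and Tfpi had 3. Where several probes name a gene, the probe with the highest mean level stands for it, and the other probes are described beside it.

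CodeLink Rat Whole Genome arrays measured total hippocampal RNA of male adult Wistar rats, 1 array per rat and 18 in all. Rats of the D3 group (n = 5) were examined 3 days after pilocarpine-induced status epilepticus (SE), those of the D7 group (n = 5) 7 days post-SE, and those of the Chronic group (n = 5) within hours of their first spontaneous seizure. Pilocarpine is a muscarinic cholinergic agonist, and these 15 rats also received scopolamine methylnitrate beforehand and diazepam to end the seizures. The Control group (n = 3) received saline alone, and held 1 rat for each of the 3 times, so the effects of pilocarpine, SE and the accompanying drugs cannot be told apart. The samples are whole hippocampus, in which fewer cells of a type and less RNA per cell cannot be told apart.

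Coagulation starts when tissue factor, the product of F3, meets factor VII of the blood and activates factor X, the product of F10, which in turn makes thrombin from prothrombin. Tissue factor pathway inhibitor (Tfpi) blocks the first step, thrombomodulin (Thbd) turns thrombin toward the activation of protein C, and the receptor PAR1 (F2r) carries the thrombin signal into cells, in brain into neurons and astrocytes as well. Clots and matrix are removed by plasmin, which tissue plasminogen activator (Plat) and urokinase (Plau) make from plasminogen. Plaur is the receptor that holds urokinase at the cell surface, and A2m encodes alpha-2-macroglobulin, a broad trap for proteases including plasmin and thrombin. Tissue plasminogen activator is known in hippocampus for its release by neurons and microglia and for its part in synaptic plasticity.

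Levels are normalised intensities, with the median spot of each array near 1, and each spot has a flag, G for good or L for low signal. Differences are log2 fold changes with their standard errors from limma fitted to all 33800 tested probes, and p-values were adjusted over all of them by the method of Benjamini and Hochberg. A gene is called hyper-expressed or hypo-expressed at an adjusted p under 0.05 together with a change of at least 2-fold. The share of spots flagged G was between 66.0% and 76.0% over the 18 arrays. Of the 9 measured markers of hippocampal neurons, only Snap25 had no spot flagged G in Control. Markers of the choroid plexus, a tissue that borders the hippocampus, varied within every group, and neutrophil markers were high in 1 rat, D7 replicate 31. Values of these marker lists are given beside the genes they touch.

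At D3, 5 of the 9 genes were hyper-expressed, namely A2m, Plau, F10, Plaur and F3, and 3 remained so at D7 and in Chronic: A2m, Plau and F10. In probes this was 6 of 15 at D3, where 3.42% of all probes were called higher, 4 of 15 at D7 against 3.06%, and 4 of 15 in Chronic against 2.28%. None of the 15 probes was hypo-expressed by limma, where 1.17%, 0.432% and 0.612% of all probes were at D3, D7 and Chronic. At an unadjusted p under 0.05, 1 probe was lower at D3, 2 at D7 and 0 in Chronic, against 22.5%, 20.8% and 19.5% of all probes. The methods' t-test called 0 lower. Over the 9 genes the median log2 fold change was 1.12 at D3, 0.50 at D7 and 0.78 in Chronic. Over all 12331 tested genes it was -0.10, -0.12 and -0.12. The 3 comparisons share their Control arrays.

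**Figure D1:**
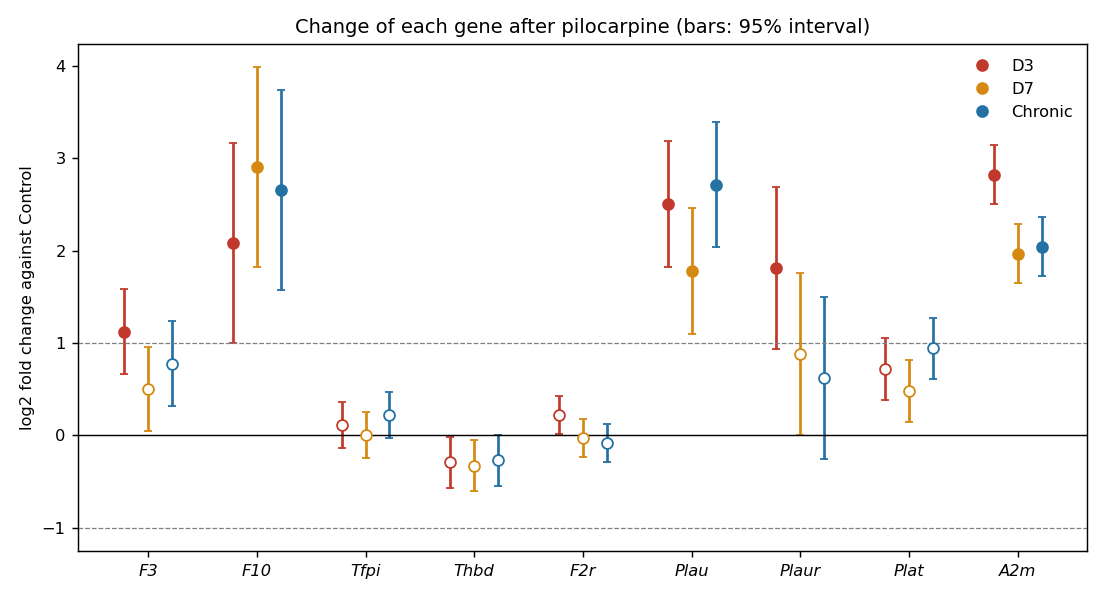
Log2 fold change of each gene against Control at D3 (red), D7 (orange) and Chronic (blue), for the probe that stands for the gene. Bars are 95% confidence intervals from the model, filled points were called, and dashed lines mark a 2-fold change. A2m, F10 and Plau lie above the upper dashed line at every time, Plat lies just under it in Chronic at 0.94, and Tfpi, Thbd and F2r lie near 0.

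Sequence just upstream of the start of transcription was at hand for 5 of the 9 genes, from RefSeq on GRCr8. The promoters of Plaur, Plau and F10 are shown because these genes were hyper-expressed and stand for the receptor, the activator and the coagulation protease. Each runs from 250 bases before to 50 bases after the start, on the strand of the gene, and capitals mark matches to AP-1 (TGANTCA), STAT (TTCNNNGAA), Sp1 (GGGCGG) or a TATA box (TATAAA), searched on both strands.
Plaur, chr1:89181113-89181412, plus strand: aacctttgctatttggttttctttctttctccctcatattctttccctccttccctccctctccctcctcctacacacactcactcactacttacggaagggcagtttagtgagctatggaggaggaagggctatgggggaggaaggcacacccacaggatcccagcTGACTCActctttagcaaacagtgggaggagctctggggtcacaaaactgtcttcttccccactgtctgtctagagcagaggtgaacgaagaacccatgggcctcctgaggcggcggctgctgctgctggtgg
Plau, chr15:3511938-3512237, minus strand: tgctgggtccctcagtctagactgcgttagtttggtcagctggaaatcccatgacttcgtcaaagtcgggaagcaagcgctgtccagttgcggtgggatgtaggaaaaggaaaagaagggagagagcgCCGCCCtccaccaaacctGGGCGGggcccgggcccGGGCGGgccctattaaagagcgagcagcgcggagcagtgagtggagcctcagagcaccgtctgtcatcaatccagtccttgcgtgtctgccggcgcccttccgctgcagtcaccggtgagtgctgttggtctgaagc
F10, chr16:83190231-83190530, minus strand: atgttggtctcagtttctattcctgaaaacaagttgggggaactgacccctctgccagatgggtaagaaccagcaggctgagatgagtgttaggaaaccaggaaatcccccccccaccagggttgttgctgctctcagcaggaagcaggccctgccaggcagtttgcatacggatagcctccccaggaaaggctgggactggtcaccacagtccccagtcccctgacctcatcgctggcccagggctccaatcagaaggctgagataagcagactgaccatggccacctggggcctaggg
Plaur held 1 match to AP-1, which begins 83 bases before the start, and AP-1 matches occur in 7.33% of all 33469 promoters of this length. F2r, which was not called, held an AP-1 match as well. Plau held 3 matches to Sp1, a motif found in 33.1% of all promoters, and its promoter has none of the other motifs. F2r held 2 Sp1 matches and Tfpi held 1, and neither gene was called. F10 held no match to any of the 4 motifs. STAT matches are in 8.87% and TATA boxes in 14.2% of all promoters, and neither occurred in the promoters of the 5 genes. These matches describe letters in a short window and say nothing of whether a factor binds there.

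A2m had the smallest adjusted p of the 9 genes at each time. Its intensity was 4.95, 3.61 and 4.48 in the 3 Control rats. At D3 it was 27.9, 27.5, 34.4, 28.4 and 34.8, at D7 it was 18.4, 17.2, 19.1, 16.4 and 13.7, and in Chronic it was 24.1, 16.6, 19.1, 16.1 and 14.4. All 15 pilocarpine rats lay above all controls, and the D3 rats lay above every rat of D7 and Chronic. The log2 fold change against Control was 2.82 ± 0.15 at D3 (adjusted p = 2.66e-09), 1.97 ± 0.15 at D7 (adjusted p = 9.36e-07) and 2.04 ± 0.15 in Chronic (adjusted p = 4.75e-07), or 7.06-fold, 3.91-fold and 4.12-fold.

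The level of A2m was lower at D7 than at D3 by a log2 difference of -0.85 ± 0.13 (adjusted p = 0.00477), and the Chronic level differed from the D3 level by -0.78 ± 0.13 (adjusted p = 0.00238). Both differences are smaller than 2-fold and were not called on size. By adjusted p alone, 0.627% of all probes were lower at D7 than at D3 and 1.92% were lower in Chronic than at D3. Between Chronic and D7 the difference was 0.08 ± 0.13 (adjusted p = 0.898), with a 95% confidence interval from -0.20 to 0.35. A2m was the only one of the 9 genes with an adjusted p under 0.05 between any of the 3 times.

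Some markers of other cells also differed from D3. The mean log2 level of 9 astrocyte markers was -0.10 to 0.10 in Control, and at D3, D7 and Chronic it was 0.53 to 0.69, 0.34 to 0.64 and 0.03 to 0.44. That of 7 markers of infiltrating monocytes and macrophages was 0.97 to 1.32, 0.34 to 1.19 and 0.38 to 1.06 (Control -0.18 to 0.17), and that of 9 markers of pericytes and smooth muscle was 0.38 to 0.99, -0.23 to 0.58 and -0.02 to 0.37 (Control -0.31 to 0.56). In each of these lists 1 gene was called lower at D7 and in Chronic than at D3, and 0 were called higher. These were Vim in astrocytes (-1.32 and -1.40), Lyz2 in monocytes (-1.36 and -1.96) and Tagln in smooth muscle (-1.72 and -1.65). They were named after their values were seen and do not stand for their lists. The list medians of these differences were -0.06 and -0.38 for astrocytes, -0.26 and -0.21 for monocytes, and -0.31 and -0.17 for pericytes. By adjusted p alone, 1 astrocyte marker was higher at D7 than at D3, and 1 in Chronic. The part of these cells in the level of A2m was not tested.

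**Figure D2:**
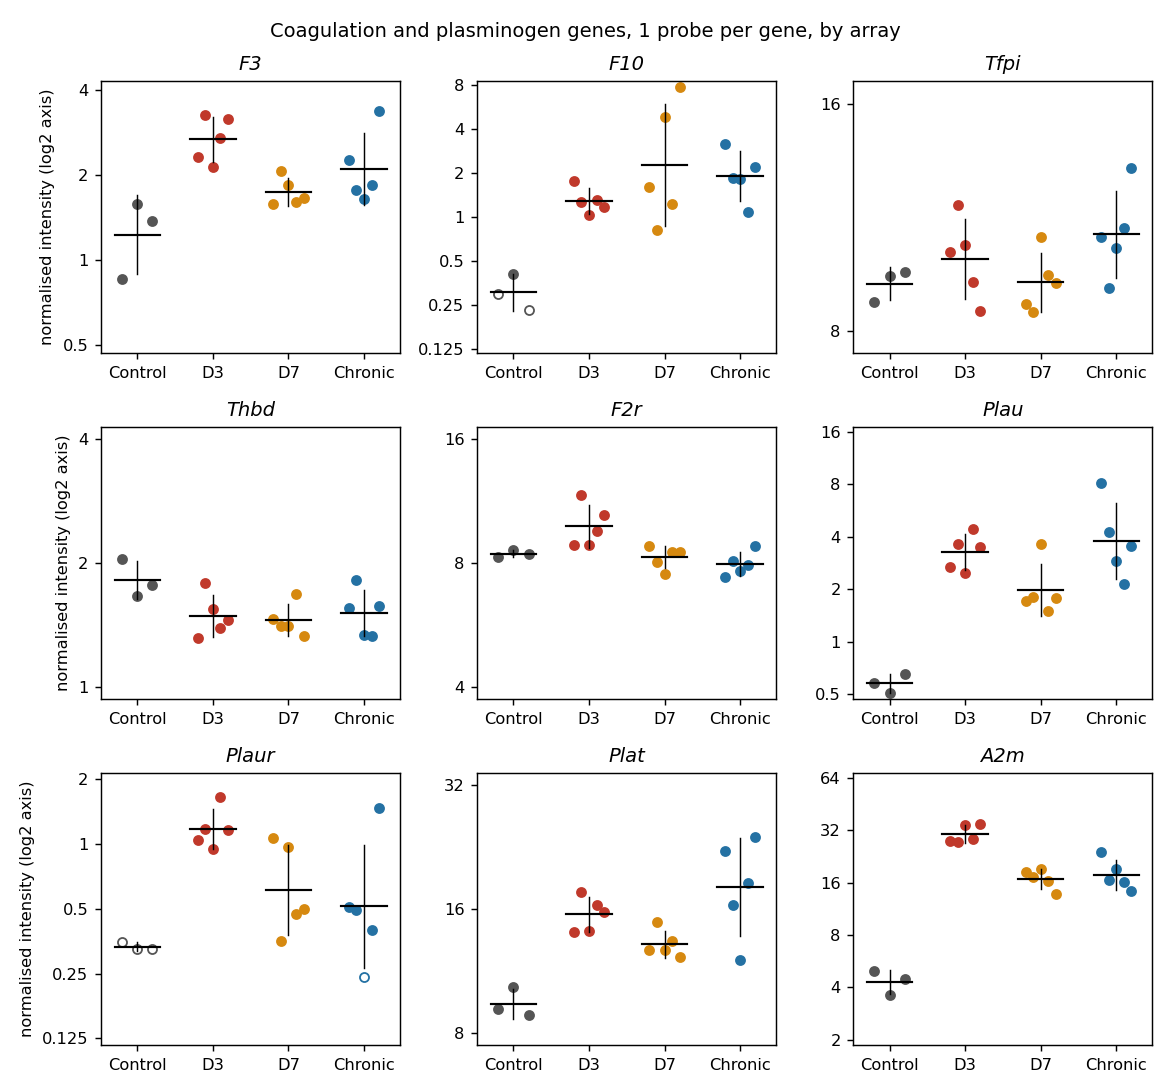
Normalised intensity on a log2 axis of each gene in every array, by group, for the probe that stands for the gene. Each point is 1 rat, filled where the spot was flagged G and open where it was flagged L, the horizontal line is the mean of log2 values and the vertical line is 1 SD to either side. The D3 rats form the top group of A2m (27.5 to 34.8), Plau separates all pilocarpine rats from Control, and the D7 rats of F10 spread from 0.811 to 7.84.

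Plau, the gene of urokinase, was hyper-expressed at all 3 times. The Control rats gave 0.577, 0.508 and 0.649. At D3 the intensity was 2.67, 3.65, 2.46, 4.42 and 3.48, at D7 it was 1.72, 1.80, 3.64, 1.504 and 1.78, and in Chronic it was 8.14, 4.25, 2.90, 2.13 and 3.55. No pilocarpine rat overlapped with Control. D7 replicate 33 stood above the other D7 rats and Chronic replicate 41 above all other rats.

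The log2 fold change of Plau was 2.50 ± 0.32 at D3 (adjusted p = 4.45e-05), 1.78 ± 0.32 at D7 (adjusted p = 0.0016) and 2.71 ± 0.32 in Chronic (adjusted p = 0.000111), or 5.67-fold, 3.44-fold and 6.55-fold. The D7 level differed from D3 by -0.72 ± 0.28 (adjusted p = 0.271), the Chronic level differed from D7 by 0.93 ± 0.28 (adjusted p = 0.229), and neither difference passed the test. A second probe of Plau was flagged L in 17 of 18 arrays, with intensities from 0.0456 to 0.378, and was not called. With the mean of both probes, Plau at D7 was no longer called, at 0.67 (adjusted p = 0.11).

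Plaur, the urokinase receptor, was hyper-expressed at D3. Its Control values were 0.352, 0.326 and 0.325, all flagged L. At D3 the intensity was 1.05, 1.17, 0.948, 1.66 and 1.15, at D7 it was 1.07, 0.353, 0.972, 0.473 and 0.501, and in Chronic it was 0.511, 0.493, 0.241, 0.401 and 1.47. All D3 rats lay above Control by a wide margin, D7 replicates 31 and 33 lay within the D3 range while the other D7 rats lay between 0.353 and 0.501, and Chronic replicate 45 alone reached the D3 range.

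Where a gene was flagged L in all controls, its fold is given below as a bound, against the lowest signal flagged G on each Control array or the gene's own signal there, whichever is higher. For Plaur the own signal was the higher, so its 3.52-fold change at D3 (adjusted p = 0.00443) is the fitted one and not a smaller bound. The fitted log2 fold change was 1.81 ± 0.42 at D3 (95% interval 0.94 to 2.69), 0.88 ± 0.42 at D7 (adjusted p = 0.154) and 0.62 ± 0.42 in Chronic (adjusted p = 0.351). Chronic lay below D3 by -1.19 ± 0.36 (adjusted p = 0.0884), which did not pass the test. Without Chronic replicate 45 the same difference was -1.57 (adjusted p = 0.00465) and was called.

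Plat, the gene of tissue plasminogen activator, lay above Control in every pilocarpine rat but did not reach 2-fold. Control rats gave 9.12, 10.4 and 8.83. At D3 it was 14.01, 17.6, 14.2, 16.3 and 15.7, at D7 it was 12.7, 14.9, 12.7, 13.3 and 12.2, and in Chronic it was 22.2, 16.3, 11.999, 18.5 and 23.9. The lowest pilocarpine rat, Chronic replicate 43, was still above the highest control.

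The log2 fold change of Plat was 0.72 ± 0.16 at D3 (adjusted p = 0.0035), 0.48 ± 0.16 at D7 (adjusted p = 0.0436) and 0.94 ± 0.16 in Chronic (adjusted p = 0.00145). By adjusted p alone, 7.91% of all probes were higher at D3, 6.2% at D7 and 4.86% in Chronic. The Chronic value is near the 2-fold limit and passed it under quantile normalization (1.12) and after scaling each array at its percentile 75 (1.05), and without Chronic replicate 43 (1.09) or Control replicate 36 (1.01). Chronic exceeded D7 by 0.46 ± 0.14 (adjusted p = 0.229), which did not pass the test.

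F3, the gene of tissue factor, was hyper-expressed at D3. Control rats gave 0.852, 1.58 and 1.37. At D3 the intensity was 2.31, 3.25, 2.14, 2.69 and 3.14, at D7 it was 1.57, 2.05, 1.85, 1.60 and 1.65, and in Chronic it was 2.26, 1.77, 1.64, 1.83 and 3.37. All rats of D3 and Chronic lay above Control, and 4 of the 5 rats of D7 did.

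The log2 fold change of F3 was 1.12 ± 0.22 at D3 (adjusted p = 0.00146), 0.50 ± 0.22 at D7 (adjusted p = 0.119) and 0.78 ± 0.22 in Chronic (adjusted p = 0.0237, under 2-fold). The D3 call rests on Control replicate 26, the lowest of the controls, since without it the change was 0.86 (adjusted p = 0.0177) and less than 2-fold. D7 was lower than D3 by -0.62 ± 0.19 (adjusted p = 0.143), which did not pass the test.

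F10, the gene of coagulation factor X, was hyper-expressed at all 3 times by both of its probes. With the brighter probe, Control rats gave 0.299, 0.409 and 0.232, of which the first and the last were flagged L. At D3 the intensity was 1.78, 1.28, 1.04, 1.30 and 1.18, at D7 it was 1.60, 0.811, 4.88, 1.23 and 7.84, and in Chronic it was 3.19, 1.86, 1.83, 1.09 and 2.20. No pilocarpine rat overlapped with Control, and D7 replicates 33 and 35 stood above every other rat.

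The log2 fold change of this F10 probe was 2.09 ± 0.52 at D3 (adjusted p = 0.00718), 2.90 ± 0.52 at D7 (adjusted p = 0.0014) and 2.65 ± 0.52 in Chronic (adjusted p = 0.00335). The other F10 probe was flagged L in all controls, with 0.165, 0.162 and 0.146. It ran from 0.237 to 0.559 at D3, from 0.391 to 2.03 at D7 and from 0.442 to 1.18 in Chronic, with the same D7 rats on top (1.51 in replicate 33 and 2.03 in replicate 35). Its change was at least 1.49-fold at D3 (adjusted p = 0.0297), at least 2.78-fold at D7 (adjusted p = 0.00258) and at least 2.64-fold in Chronic (adjusted p = 0.00398). For neither probe did the 3 times differ from each other at an adjusted p under 0.05.

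Markers of microglia and macrophages were also higher than Control in the pilocarpine rats. Of the 10 listed, 7 were hyper-expressed at D3, 9 at D7 and 7 in Chronic. Their mean log2 level above Control ran from 1.56 to 1.94 at D3, from 0.996 to 2.62 at D7 and from 0.98 to 1.73 in Chronic. The median log2 fold change of these markers was 1.57, 1.59 and 1.18 at D3, D7 and Chronic, and that of F10 was 2.09, 2.90 and 2.65. The times of F10 did not differ from each other at an adjusted p under 0.05, so no order of times is read from these values. In Chronic the markers were highest in replicate 45 and F10 in replicate 41. D7 replicates 33 and 35, the rats with the most F10, also had the highest microglial level of that group, 2.62 and 2.08. The same rats had the highest choroid plexus level of the D7 group, 2.63 and 1.93, against -1.36 to -1.60 in the other D7 rats. The choroid plexus level was entered as a covariate in an alternative added after the values were seen. F10 then stood at 2.13 at D3 (adjusted p = 0.00166), 2.90 at D7 (adjusted p = 0.000301) and 2.35 in Chronic (adjusted p = 0.00357). The D7 rats lay on both sides of the Control mean in choroid plexus level. Their group mean thus differed little from Control, and the covariate could hardly move the D7 value. The parts of microglia and of choroid plexus in the change of F10 were not tested.

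Tfpi, Thbd and F2r were not called at any time. The brightest Tfpi probe ran from 8.73 to 9.56 in Control, from 8.49 to 11.7 at D3, from 8.47 to 10.7 at D7 and from 9.10 to 13.1 in Chronic, so the groups overlapped. Its log2 fold change was 0.11 at D3 (95% interval -0.14 to 0.36), 0.01 at D7 (-0.24 to 0.25) and 0.22 in Chronic (-0.03 to 0.47). Of its other probes, one lay between -0.19 and 0.18 at the 3 times and one was flagged L in 17 of 18 arrays.

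The probes of Thbd differed in sign. The brighter one ran from 1.67 to 2.05 in Control and from 1.31 to 1.81 in the pilocarpine rats, with log2 fold changes of -0.29 ± 0.13 at D3 (adjusted p = 0.127), -0.33 ± 0.13 at D7 (adjusted p = 0.0923) and -0.27 ± 0.13 in Chronic (adjusted p = 0.182). The other ran from 0.622 to 1.10 in Control and from 0.713 to 2.15 in the pilocarpine rats, with 0.69 ± 0.27 (adjusted p = 0.0771), 0.33 ± 0.27 (adjusted p = 0.435) and 0.80 ± 0.27 (adjusted p = 0.0561). Neither passed the test, so the direction of Thbd depends on the probe.

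For F2r, the thrombin receptor, the brighter probe ran from 8.29 to 8.60 in Control, from 8.83 to 11.7 at D3, from 7.53 to 8.80 at D7 and from 7.39 to 8.81 in Chronic. All 5 D3 rats lay above the controls, by 0.22 (95% interval 0.01 to 0.43, adjusted p = 0.12). The changes at D7 (-0.03) and in Chronic (-0.09) turned positive under quantile normalization and scaling at the percentile 75, and were not called there either. The second probe gave -0.14, -0.39 and -0.26 at the 3 times, with an adjusted p of 0.0764 at D7.

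**Figure D3:**
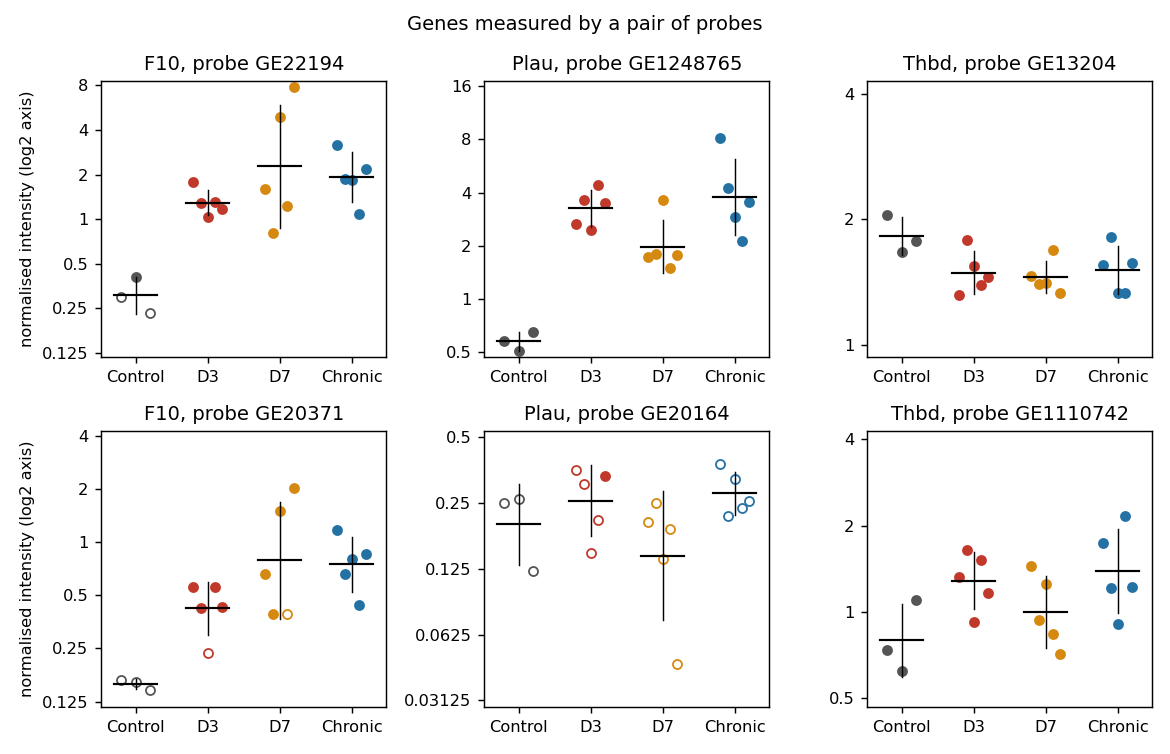
Normalised intensity on a log2 axis by group for the genes F10, Plau and Thbd, each measured by a pair of probes, the brighter one in the top row. Points are rats, filled where flagged G and open where flagged L, and lines are the mean and 1 SD of log2 values. Both F10 probes place D7 replicates 33 and 35 on top, the lower Plau probe is flagged L in 17 of 18 arrays, and the Thbd probes lie on opposite sides of Control.

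None of the 9 genes was called between times, where 0.0947% of all probes were higher and 0.228% lower at D7 than at D3, 0.195% higher and 0.547% lower in Chronic than at D3, and 0.0207% higher and 0.0296% lower in Chronic than at D7. At an unadjusted p under 0.05, 5 of the 9 genes differed between D7 and D3, 3 between Chronic and D3 and 2 between Chronic and D7, where 12.7%, 16.7% and 10.1% of all probes did. A difference in the pattern of F3, Plau and Plaur from one time to another was therefore not shown, although F3 and Plaur were called at D3 alone.

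The 42 measured genes of a wider list of coagulation and fibrinolysis (60 were listed, the others were not analysed here) held 6 hyper-expressed genes at D3, 6 at D7 and 4 in Chronic, where 5.09%, 3.8% and 2.87% of all 12331 tested genes were. No gene of the list was hypo-expressed by limma or by the methods' t-test, and 3, 4 and 3 were lower at an unadjusted p under 0.05. Their median log2 fold change was 0.17, 0.25 and 0.22. Of the 7 measured clotting factor genes of this list, only F13a1 was called, and it was hyper-expressed at all 3 times. F13a1 encodes the subunit of factor XIII that crosslinks fibrin. Its intensity was between 0.0445 and 0.364 in Control and between 0.261 and 1.02 in the pilocarpine rats, with log2 fold changes of 2.02 ± 0.50, 2.03 ± 0.50 and 1.85 ± 0.50. Without Control replicate 26, F13a1 fell to 1.11 at D3 (adjusted p = 0.0637) and was not called at any time.

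Of the 7 anticoagulant genes, Procr and Tfpi2 were hyper-expressed. Procr, the endothelial protein C receptor, was flagged L in all controls and changed by at least 1.97-fold at D3 (adjusted p = 0.014) and at least 2.01-fold at D7 (adjusted p = 0.0172). Its Chronic value, 1.18 ± 0.43 on the log2 scale, had an adjusted p of 0.0698, and was called without Chronic replicate 43 (1.39, adjusted p = 0.0343) or without D7 replicate 33 (adjusted p = 0.0424). Without Control replicate 26, Procr was not called at D3 (1.01, adjusted p = 0.128) or D7 (1.04, adjusted p = 0.133). The D7 call was also lost with the mean of all Procr probes (1.46, adjusted p = 0.0615). Tfpi2, a relative of Tfpi that inhibits plasmin as well, changed by 1.496 ± 0.44, 1.31 ± 0.44 and 1.56 ± 0.44 at D3, D7 and Chronic. Its adjusted p was 0.019, 0.0434 and 0.0226, and without Control replicate 36 it was not called at any time. The D7 call was lost without any one of 9 of the 18 arrays, and the Chronic call also without Control replicate 26 (adjusted p = 0.0594).

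Of the 8 genes of plasminogen and its receptors, S100a10, Anxa2 and Itgam were hyper-expressed at some time. S100a10 and Anxa2 together form a surface complex that binds plasminogen and tissue plasminogen activator. S100a10 was flagged L in all controls (0.125 to 0.271) and reached 0.919 to 1.94 at D3, a change of at least 4.59-fold (adjusted p = 0.000204), and was called at D7 as well (at least 1.68-fold, adjusted p = 0.0445). The D7 call was lost without any one of 11 of the 18 arrays, with an adjusted p of up to 0.24 without Control replicate 36, and the gene was called in Chronic without Chronic replicate 42 (adjusted p = 0.049) or 44 (adjusted p = 0.0449). It was lower in Chronic than at D3 by -1.56 ± 0.35 (adjusted p = 0.0201), the only one of the 42 genes called between times. Anxa2 was called at D3 alone, at least 1.12-fold on spots near background, and was not called with the mean of all its probes (0.65, adjusted p = 0.167), without Control replicate 26 (1.08, adjusted p = 0.146) or without D3 replicate 12 (1.33, adjusted p = 0.0533).

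Itgam, an integrin of microglia and other myeloid cells that binds plasminogen and urokinase receptor, was 0.99 ± 0.32 at D3, 1.12 ± 0.32 at D7 and 1.16 ± 0.32 in Chronic. It was called at D7 (adjusted p = 0.0199) and in Chronic (adjusted p = 0.0196), and at neither time without Control replicate 26 (adjusted p = 0.0954 and 0.1) or replicate 36 (adjusted p = 0.0655 and 0.0679). At D7 it also fell under 2-fold without D7 replicate 33 (0.85), and at D3 it was called without D3 replicate 12 (1.06), D3 replicate 15 (1.02) or Control replicate 47 (1.14). It is also one of the microglial markers counted above. Plg itself, the gene of plasminogen, stood at -0.04, -0.01 and -0.08 at the 3 times.

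Of the 9 inhibitors of plasminogen activators and plasmin described here, Serping1 was hyper-expressed at all 3 times. Serping1, the C1 inhibitor that also blocks factor XII and kallikrein, changed by 2.88 ± 0.25, 3.25 ± 0.25 and 2.99 ± 0.25, with Control replicate 36 missing from the fit by its flag. Its Control mean thus rests on replicates 26 and 47, which gave 0.966 and 2.73, while the pilocarpine rats ran from 10.8 to 20.0. By the methods' t-test after adjustment, Serping1 was not called at D7 (adjusted p = 0.0524).

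By adjusted p alone, 10 of the 42 genes were higher at D3, 7 at D7 and 5 in Chronic, where 7.91%, 6.2% and 4.86% of all probes were. Among these, the clotting factor gene F8 was higher at all 3 times, by 0.74, 0.57 and 0.77, each under 2-fold. By the same rule, 3 of the 42 genes were lower at D3, 4 at D7 and 1 in Chronic, where 14.2%, 11.9% and 9.8% of all probes were. Serpini1, or neuroserpin, the neuronal inhibitor of tissue plasminogen activator, was the gene lower at all 3 times, by -0.89 ± 0.21 (adjusted p = 0.00506), -0.92 ± 0.21 (adjusted p = 0.00682) and -0.77 ± 0.21 (adjusted p = 0.0196). It was singled out after its values were seen. Markers of hippocampal neurons were lower in the same rats. Of 9 such markers, 6, 4 and 4 were lower by adjusted p alone at D3, D7 and Chronic, and their mean log2 level was -0.68 to -0.30, -0.78 to -0.07 and -0.46 to -0.26, against -0.04 to 0.05 in Control. Their part in the level of Serpini1 was not tested. The 3 measured contact and kinin genes, the 6 fibrinogen and platelet adhesion genes and the 2 other protease-activated receptors held no gene called by limma, and 3, 2 and 3 of these 11 genes at an unadjusted p under 0.05. The methods' t-test without adjustment called 1 of them in Chronic.

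**Figure D4:**
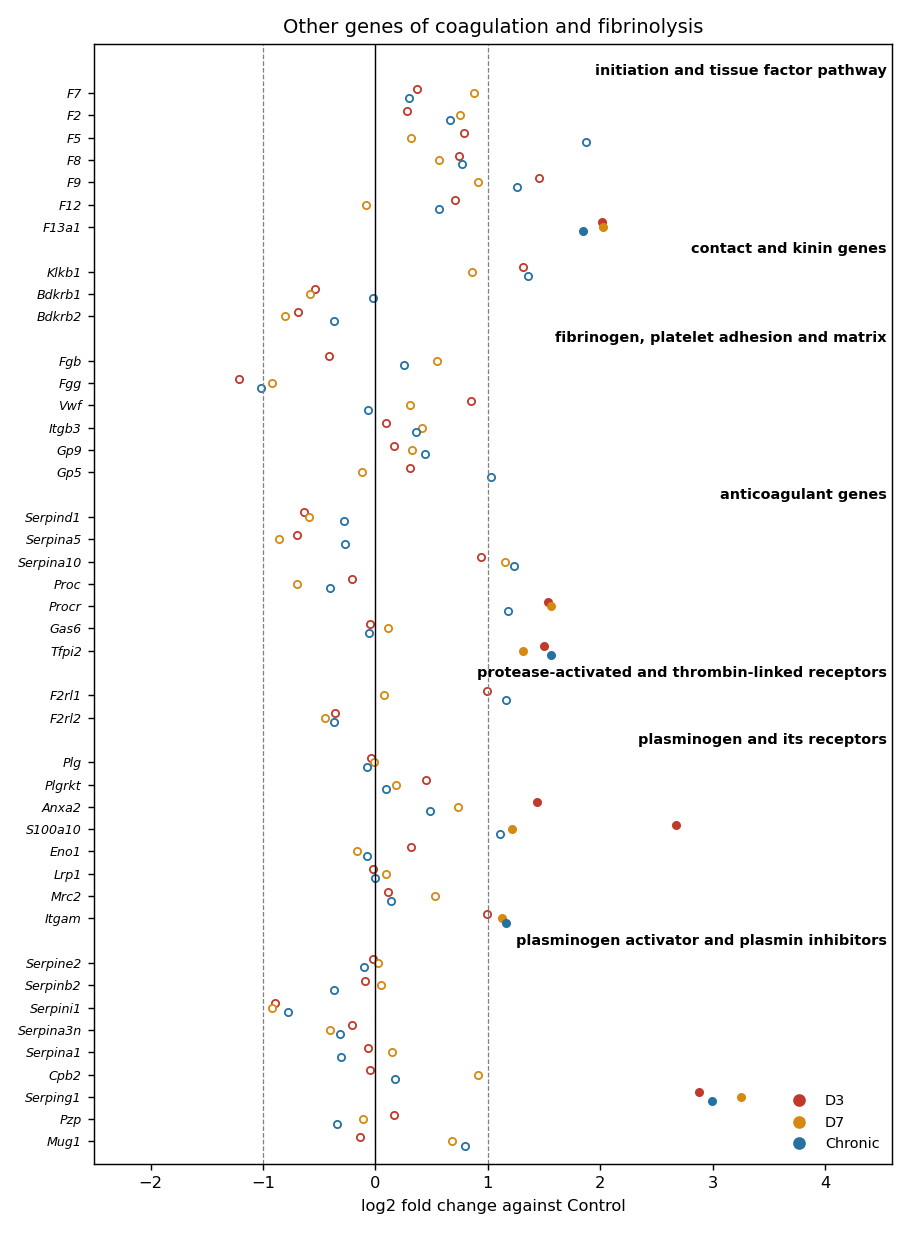
Log2 fold change against Control of 42 other coagulation and fibrinolysis genes, grouped by role, at D3 (red), D7 (orange) and Chronic (blue). Filled points were called and dashed lines mark a 2-fold change. Serping1 and S100a10 at D3 (2.67) lie farthest to the right, and Plg lies at 0.

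Chronic replicate 45 had the highest value of the Chronic group for 10 of the 16 genes described one by one, among them 5 of the 9, F3, Tfpi, F2r, Plat and Plaur. D7 replicate 33 had the highest value of the D7 group for 9 of the 16, among them Tfpi, Plau and A2m. Of the 10 endothelial markers, 0 were called at any time by limma or the methods' t-test (3 at D3, 2 at D7 and 2 in Chronic at an unadjusted p under 0.05, where 34.2%, 32.1% and 29.4% of all probes passed), with a mean log2 level between -0.28 and 0.26 in Control and between -0.27 and 0.17 in the pilocarpine rats. Of the 5 platelet markers, only Pf4 was hyper-expressed, at D3 and D7, and Ppbp had no spot flagged G in any group. Pf4 does not stand for its list, whose median log2 fold change was 0.17, 0.58 and 0.74 for D3, D7 and Chronic in turn. In mean list level, the D3 rats (-0.07 to 0.55) and the D7 rats (0.25 to 1.195) overlapped with Control (-0.47 to 0.31). The Chronic rats (0.37 to 0.997) lay above Control, though no platelet marker was called there. The number of platelets was not tested. In D7 replicate 31 the mean level of 6 neutrophil markers was 4.23 above Control, and in the other D7 rats 0.19 to 0.73. That rat had the highest D7 value of Plaur, F13a1 and F2r. It was also the highest D7 rat for the mean levels of 5 other marker lists. These were platelets (1.195), astrocytes (0.64), pericytes and smooth muscle (0.58), meningeal and perivascular fibroblasts (0.58) and erythroid cells (0.08). The part of neutrophils or of any of these cells in the 3 genes was not tested.

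**Figure D5:**
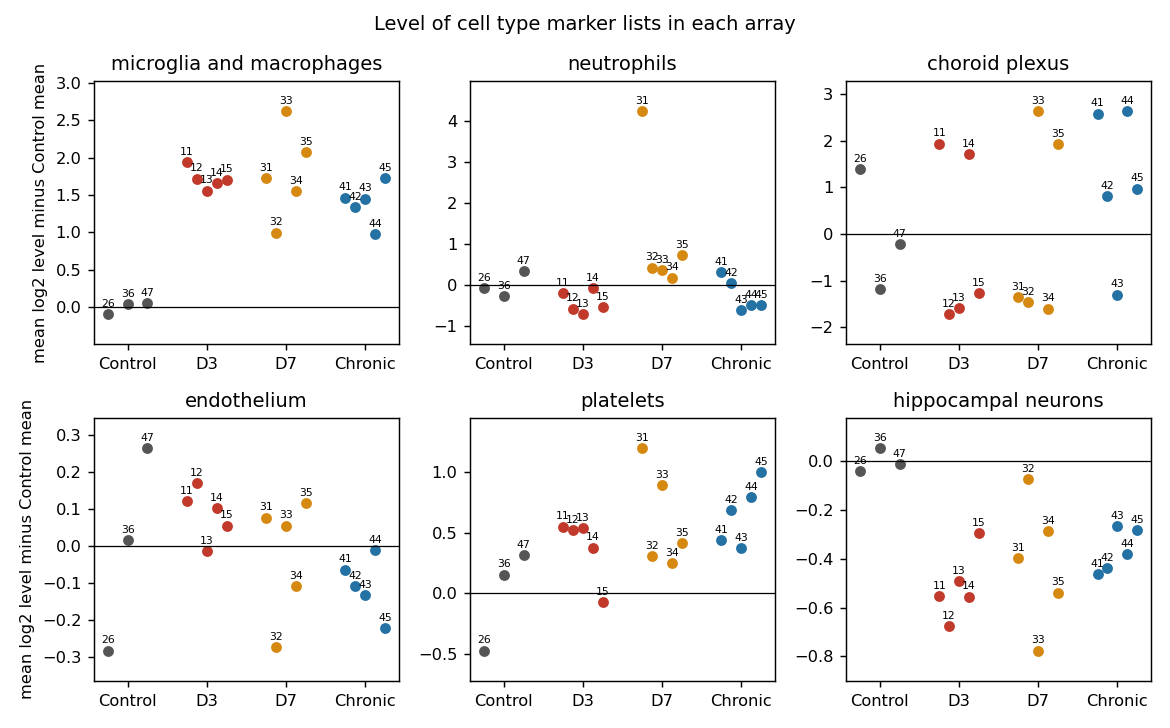
Mean log2 level of cell type marker lists in each array, relative to the Control mean, by group, with replicate numbers beside the points. Microglial markers lie between 0.98 and 2.62 in all pilocarpine rats, neutrophil markers stand out in D7 replicate 31 (4.23), and choroid plexus markers split every group.

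For each of the 5 hyper-expressed genes, the genes with the most similar profile were sought among 11184 others, by the root mean square difference of log2 levels relative to Control over the 18 arrays. A2m was nearest to Cp (0.404), Ssc5d (0.415) and St14 (0.467). F10 was nearest to Itgb2 (0.441), Lat2 (0.482) and Tnfsf4 (0.534), and Plau to Cd8b (0.472), Igf1 (0.507) and Ccl4 (0.524). Plaur was nearest to Trim47 (0.375), Tmem100 (0.385) and Flnc (0.425), and F3 to Card19 (0.226), Pdlim4 (0.243) and Gng11 (0.253). The median difference to all compared genes was 2.24 for A2m, 2.58 for F10, 2.33 for Plau, 1.38 for Plaur and 0.986 for F3, so the size of these values is set by how far each gene moved from Control.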

How the data were processed

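Per the labels, 18 CodeLink arrays held 5 rats each of D3, D7 and Chronic and 3 saline rats. The intensity values were deposited by the authors after background subtraction and division by 1 constant per array, and the median spot lies near 1 on a linear scale. Spots flagged G or L were kept, dim values were set to the percentile 1 of their array, and log2 was taken. The test required 3 values per pilocarpine group and 2 in Control. The 4 groups entered a single limma fit with an intensity trend (limma 3.58.1, R 4.3.3). Probe names came from the platform annotation or a RefSeq accession. The series value table of the authors holds the same intensity values and served as an alternative.

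The 9 genes, the wider gene list and the marker lists were chosen with earlier results of these data known. Text names all 9 genes with every probe, the genes of the wider list called at any time, and the 3 nearest genes of each called gene. F8, Plg and Serpini1 of the wider list are named as well, though they were not called. Marker genes are given by list, except Snap25, Vim, Lyz2, Tagln, Pf4 and Ppbp. A gene of the wider list is not reported here and was left out of its counts. Each array came from a separate rat, and the number of arrays limits the precision. The scripts were tested on simulated data. Alternatives were other scalings, floors, flags, probe summaries and tests, the time-matched control alone, array weights and each array left out.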

Additional observations from a re-analysis of the deposited data

Results flagged for a closer look

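Among 66 groups of 5 rats examined over the probes described, 3 held a rat farther from the others than Dixon's 95% limit allows, and chance alone gives about 5% of groups. Each gap is a share of the group's whole range, both taken on the log2 scale, while the values quoted are intensities. In D7, replicate 33 of Plau gave 3.64 against 1.504 to 1.80 in the other rats, a gap of 0.795. In Chronic, replicate 43 of the second Tfpi probe gave 0.446 against 0.683 to 0.772, a gap of 0.775. At D3, replicate 15 of Serping1 gave 13.2 against 11.5 to 11.8, a gap of 0.808.

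A2m changed less against Control at D7 than at D3, with a log2 difference between these times of -0.85 (adjusted p = 0.00477), and less in Chronic than at D3, with -0.78 (adjusted p = 0.00238), each tested by limma. S100a10 differed between Chronic and D3 by -1.56 (adjusted p = 0.0201).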

How the results depend on the processing

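No paired analysis was possible because no replicate number occurs in more than 1 group. Another background correction was not run, since the values come with the background already subtracted. Of 31 alternatives, none gave a called gene a changed sign, and of 2264 values of single genes 2170 kept their side of the threshold. The number of called genes among the 9 was 5 at D3, 3 at D7 and 3 in Chronic. It was 3 at D3 of 7 tested with only spots flagged G, and 3 at D3 and 1 at D7 with the time-matched control array alone, where limma takes the spread from the other groups. By the methods' t-test after adjustment it was 1 at D7. With each array left out it was 4 to 5, 3 and 3 to 4. With the time-matched control alone F10 had an adjusted p of 0.132, 0.109 and 0.124 at D3, D7 and Chronic, Plau 0.0566 at D7 and Plaur 0.131 at D3. Between Chronic and D3 the count was 0, 1 with array weights, 1 by the methods' t-test without adjustment, and 0 to 1 with an array left out (1 without Chronic replicate 45, the gene Plaur). It stayed 0 between D7 and D3 and between Chronic and D7.

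Of the wider list, 6, 6 and 4 genes were called at D3, D7 and Chronic. With only spots flagged G there were 1, 2 and 2 of 21 tested, with the time-matched control alone 0 at D7 and 1 in Chronic, and by the methods' t-test after adjustment 0 and 1. With each array left out the counts were 3 to 7, 1 to 6 and 1 to 6. Without Control replicate 26 they were 3, 1 and 1, without Control replicate 36 they were 3 (D7) and 2 (Chronic), and leaving out D7 replicate 33 gave 3 at D7. These counts thus lean on 3 controls, and the cause was not tested. Scaling at the percentile 75 moved the median log2 fold change of all probes by 0.11 at D7 and 0.11 in Chronic, and the probes called higher and lower went from 1035 and 146 to 1219 and 66 at D7 and from 770 and 207 to 969 and 121 in Chronic.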
